A study of Mus musculus with 12 samples.

Results

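Mitosis needs a bipolar spindle, chromosomes condensed into rods, and kinetochores that tie the chromosomes to the spindle, and 45 genes that encode this machinery are described here. They were chosen by name, with earlier results of these data known, so shares set beside those of all genes are descriptions and no test of the list. They encode Ki-67 and topoisomerase II alpha, spindle assembly factors, spindle checkpoint proteins, outer kinetochore and centromere proteins, mitotic kinesins, kinases and phosphatases, factors of anaphase, and condensin subunits. All 45 were found among the 52336 genes of the deposited table, and all 45 were among the 14996 genes with a mean normalized read count of at least 10, which were the genes tested. The 12 libraries were RNA sequencing libraries of cells taken on postnatal day 3 from newborn mice labelled wild type, 3 per group. Pups of the NAC MI group received N-acetylcysteine (NAC), an antioxidant thiol that supplies cysteine, on days 0 to 1, at a dose labelled high and in a buffer of 25 mM HEPES and 140 mM NaCl. They had a myocardial infarction (MI) by occlusion of the left anterior descending artery on day 2. The saline MI group received saline in place of NAC before the same occlusion, and the NAC sham and saline sham groups had the same injections before a sham procedure. Every group thus carried the stress of surgery and handling, and no group was left without an operation. Whole ventricles, labelled left ventricular in the sample records, were pooled and digested, and cells were selected with a kit for neonatal cardiomyocytes. The number of hearts in a pool is not given in the sources used here. Values below are normalized read counts, which are gene reads divided by 1 size factor per library, unless a log2 scale is named.

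By way of background, most of these genes are silent in resting cells and are transcribed together late in the cell cycle. In many of them a cell cycle homology region with the letters TTTGAA and nearby CCAAT boxes lie near the start of transcription, where the DREAM complex holds them off in resting cells and B-MYB and FOXM1 switch them on before mitosis. The mouse heart muscle cell still divides in the first days after birth and mostly stops within the first week, and the newborn mouse heart can replace muscle lost to an infarct in that window. In the last rounds many cardiomyocytes copy and separate their DNA without dividing the cell, so transcripts for mitosis are not a count of new cells.

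The promoters show what the members share in sequence, apart from any measured level. RefSeq windows (build GRCm38.p6) of 300 bases, 250 before and 50 after the start site, were found for 40 of the 45 genes in 42 windows. None was found for Smc4, Dlgap5, Cdc25c, Spc24 and Tpx2. TTTGAA, read on either strand, was in 29 of the 42 windows (69.0%), against 17.9% of all 32851 windows of that length. CCAAT, also on either strand, was in 32 of 42 (76.2%), against 37.4% of all windows, and at least 2 copies were in 42.9% against 11.7%. Both motifs were in 25 of 42 windows (59.5%), against 6.95% of all. The 2 motifs can share at most an end letter, so no match counts for both. These are matches of letters and not sites shown to be bound. The 5 windows printed here belong to genes whose levels are described at length. The spindle gene Hmmr, Depdc1a and the checkpoint kinase gene Bub1 were among the members with the smallest p after MI. The kinase gene Aurka and the anaphase gene Cdc20 had higher means in NAC MI than in NAC sham. Most members had lower means there. Capitals mark TTTGAA or its complement TTCAAA, and CCAAT or its complement ATTGG. Each is read 5′ to 3′ along the strand of its gene.
Hmmr chr11:40733388-40733687 minus strand: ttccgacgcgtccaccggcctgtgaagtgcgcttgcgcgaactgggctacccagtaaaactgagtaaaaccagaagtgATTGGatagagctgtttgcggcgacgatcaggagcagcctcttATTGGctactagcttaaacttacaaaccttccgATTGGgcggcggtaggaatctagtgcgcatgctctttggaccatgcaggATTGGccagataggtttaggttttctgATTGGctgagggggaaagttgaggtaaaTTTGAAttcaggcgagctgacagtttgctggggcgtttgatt
Depdc1a chr3:159495183-159495482 plus strand: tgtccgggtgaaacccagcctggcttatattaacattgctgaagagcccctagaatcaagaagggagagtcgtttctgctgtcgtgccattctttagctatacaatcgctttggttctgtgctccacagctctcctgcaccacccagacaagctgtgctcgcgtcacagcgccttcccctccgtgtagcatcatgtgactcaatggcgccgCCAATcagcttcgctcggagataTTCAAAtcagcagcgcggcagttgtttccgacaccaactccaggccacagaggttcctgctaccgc
Bub1 chr2:127831810-127832109 minus strand: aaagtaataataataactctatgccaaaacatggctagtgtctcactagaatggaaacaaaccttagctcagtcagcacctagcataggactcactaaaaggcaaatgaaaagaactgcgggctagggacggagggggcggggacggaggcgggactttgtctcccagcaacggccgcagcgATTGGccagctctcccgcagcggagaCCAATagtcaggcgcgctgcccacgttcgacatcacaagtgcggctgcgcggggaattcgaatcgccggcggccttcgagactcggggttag
Aurka chr2:172370521-172370820 minus strand: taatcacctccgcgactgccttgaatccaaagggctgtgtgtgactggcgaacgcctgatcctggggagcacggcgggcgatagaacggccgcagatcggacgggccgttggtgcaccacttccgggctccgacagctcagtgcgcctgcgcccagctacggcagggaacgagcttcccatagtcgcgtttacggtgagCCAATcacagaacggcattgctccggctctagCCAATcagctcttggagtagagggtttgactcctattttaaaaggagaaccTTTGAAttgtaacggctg
Cdc20 chr4:118437294-118437593 minus strand: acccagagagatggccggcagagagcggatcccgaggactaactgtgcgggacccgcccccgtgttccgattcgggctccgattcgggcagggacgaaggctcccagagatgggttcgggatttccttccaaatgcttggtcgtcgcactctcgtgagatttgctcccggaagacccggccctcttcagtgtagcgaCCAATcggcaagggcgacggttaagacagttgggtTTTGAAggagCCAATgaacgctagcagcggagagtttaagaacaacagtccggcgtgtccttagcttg
Hmmr held 5 CCAAT boxes, all in the reverse reading, from base -172 to base -20 counted with the start site as 0, and its TTTGAA began at base 8. Depdc1a held a TTTGAA in the reverse reading at base -16 and a CCAAT at base -39. Cdc20 held a TTTGAA at base -18 between CCAAT boxes at -53 and -8, and Aurka had its TTTGAA at base 32, after the start. In Bub1 these letters gave a pair of CCAAT boxes, at -68 and -42, and no TTTGAA in this window.

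The libraries held 14353842 to 25118341 reads, of which 0.0955% to 0.264% fell in the 45 genes (17293 to 47575 reads). The member of lowest depth, Kif18a, had 34.0 to 157 reads per library, so counting error weighed most on that gene. Sample titles carried prefixes of unstated meaning: R230 (NAC MI 3, with saline MI 1 and 2), R235 (NAC MI 1 and 2, with saline MI 3), R207 (NAC sham 2, with saline sham 1 and 2), R219 (saline sham 3) and none (NAC sham 1 and 3). No prefix stood on both MI and sham libraries, and the effect of surgery cannot be told apart from that of the prefix. Among sham libraries only R207 stood on both NAC and saline, so NAC and prefix were largely mixed there too. The interaction and the NAC comparison averaged over surgeries use the same sham libraries. Of the 19 cardiomyocyte markers, 0 were at 0 in any library, so genes of the labelled cell type were present throughout, and so were markers of other cells. The mean log2 level (score) of the list was 12.5 to 14.3 for cardiomyocytes, 10.9 to 12.6 for endothelium and 11.3 to 12.4 for fibroblasts. In such mixtures, fewer cells of a type and less RNA per cell cannot be told apart, and which cells carried the mitotic transcripts was not tested. Libraries stood apart in each of 3 groups. The macrophage score was 5.31 in NAC MI 2, where the 5 remaining MI libraries had 8.42 to 9.09, and 9.03 in NAC sham 2, where the 5 remaining sham libraries had 5.0 to 6.03. Saline sham 3 had 27.7% of its reads from the mitochondrial genome, against 7.65% and 13.6% in saline sham 1 and 2. Limma's quality weights were lowest in NAC sham 2 (0.250), saline sham 3 (0.268) and NAC MI 2 (0.451). The highest weight was that of saline MI 1 (4.70), the library with the lowest mean log2 level of the 45 genes. Saline MI 3 had 0.824, so fits with these weights lean on saline MI 1 within its group. The labels do not say that replicates came from separate litters, so the p-values here speak of the spread among libraries, and that spread may be technical.

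Per kilobase of annotated exon, the mean level over the 12 libraries ran from 9.97 for Kif18a, a kinesin that damps chromosome movement, to 613 for Ube2c, the ubiquitin-conjugating enzyme of the anaphase-promoting complex. After Ube2c came Cdc20, the activator of that complex (444), Top2a (332), the condensin core gene Smc4 (303) and Mki67 (257). Next to Kif18a at the low end stood the shugoshin gene Sgo2a (15.6). Exons of another gene overlap those of 14 members, over more than 10% of their length in 5: Sgo2a, Ube2c, Kif4, Ncapg and Cdc25c. The strand setting of the count is not given in the sources used here, so reads of these genes and of their neighbours may have been mixed.

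Across the 12 libraries most members varied together. Over log2 levels, the Pearson correlation of a member with the mean of the other 44 had a median of 0.82, and 24 of 45 were above 0.8, where 693 of the other 14951 genes were (against the mean of the 45). Bub1 (0.987), the spindle-separating kinesin gene Kif11 (0.971) and Depdc1a (0.949) followed the mean most closely. Some members did not follow it. Plk1 (-0.0077), Cdc20 (-0.029), the kinetochore gene Spc24 (-0.060), the checkpoint gene Bub3 (-0.080) and Ube2c (-0.093) had correlations near 0, and Pttg1, which encodes the separase inhibitor securin, had -0.46. The libraries share surgery, treatment, prefix and size factors, so these are descriptions and carry no p. Among genes outside the 45, those most like their mean ran from 0.971 for Anln (anillin, of the cleavage furrow) through Esco2 (0.965), Bora (0.963), Kif20b (0.953), Cip2a (0.950), Trim2 (0.947), Gas2l3 (0.942), Cep55 (0.941), Prc1 (0.940), Alg6 (0.939), Cenpc1 (0.938), Atg2b (0.937) and Atad5 (0.936) to Nup160 (0.932), all over the same 12 libraries. Of these, Anln, Cep55, Prc1, Bora and Kif20b are in the lists of cytokinesis and other mitosis genes.

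**Figure D1:**
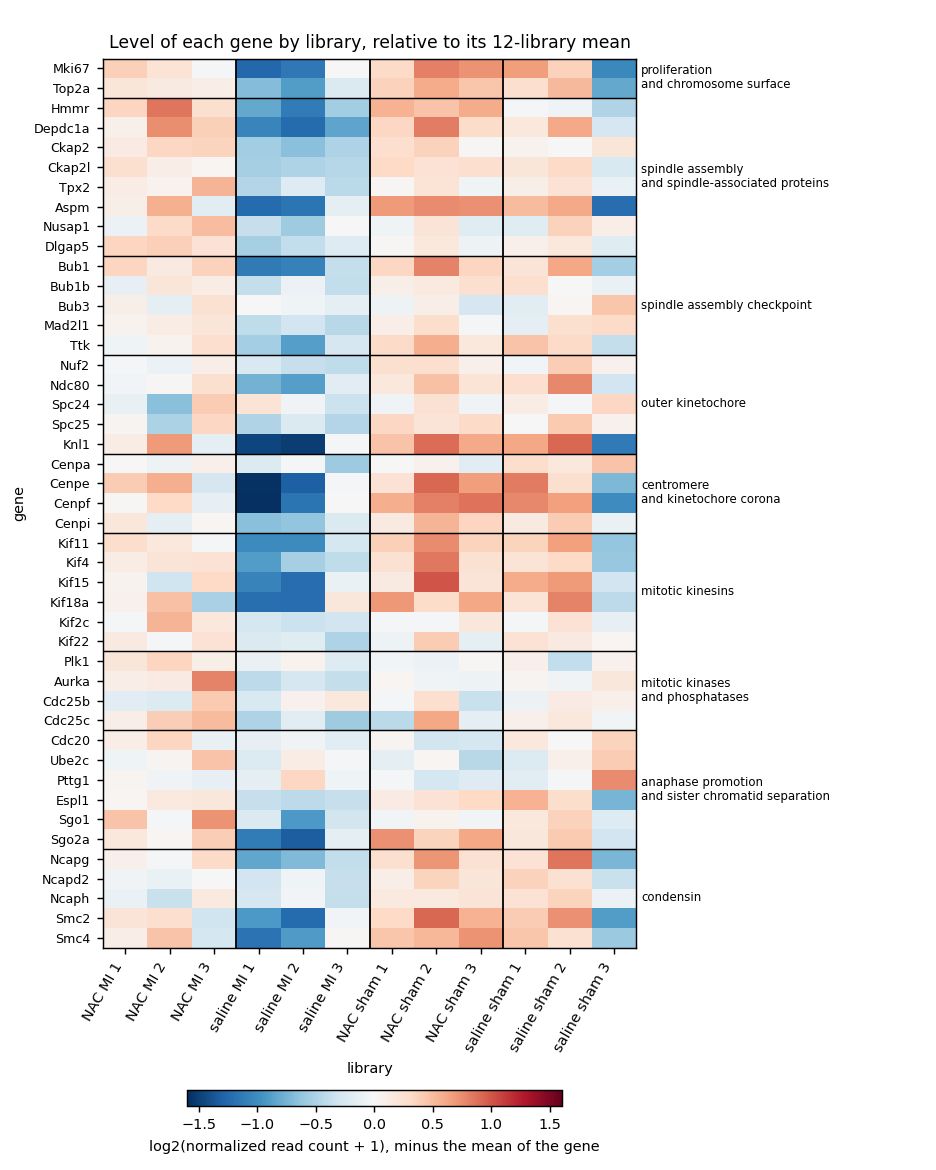
Level of each of the 45 genes (rows, grouped by role) in each of the 12 libraries (columns), as log2(normalized read count + 1) minus the mean of the gene over the libraries, blue below and red above. Saline MI 1 and 2 are blue in most rows, saline sham 3 is blue in the rows of Mki67, Aspm, Knl1, Cenpe, Cenpf and Smc2, and Pttg1 is reddest in saline sham 3.

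The first comparison asked what NAC given before an infarct changed in the transcripts of mitosis a day after it. After MI, 43 of the 45 genes had a higher mean in the NAC group than in the saline group, and the median log2 difference was 0.68, against -0.02 over all genes tested. In 24 of 45 genes all 3 NAC MI libraries lay above all 3 saline MI libraries, where 8.84% of all genes did. No single gene passed: limma called 0 of 45 (and 0% of all genes), with a smallest adjusted p of 0.529, and edgeR called 0 of 45 (and 0% of all genes). At an unadjusted p under 0.05, 29 of 45 were higher, against 3.86% of all genes. DESeq2 called Hmmr, Depdc1a and Ckap2 higher, 3 of the 10 genes it called in all (0.0757%), and limma with library quality weights called 25 of 45, against 4.57% of all genes. With 3 libraries on each side, the smallest p that an exact permutation test allows is 0.1, two-sided.

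All 8 spindle assembly genes had a higher mean in NAC MI, with a median log2 difference of 0.77, and 6 of them had groups that did not overlap. Hmmr (ENSMUSG00000020330, chr11:40701395-40733422, minus strand), which encodes a microtubule-binding protein of spindle assembly, had 617, 875 and 579 in NAC MI 1 to 3, against 275, 224 and 329 in saline MI 1 to 3. The lowest NAC library was thus well above the highest saline library, with a log2 difference of 1.31 (SE 0.21, limma adjusted p = 0.529). Depdc1a (ENSMUSG00000028175, chr3:159495433-159529955, plus strand), which encodes a DEP domain protein, had 206, 328 and 254 in NAC MI, against 93.1, 82.5 and 108 in saline MI, a log2 difference of 1.45 (SE 0.27, limma adjusted p = 0.529). Its saline MI libraries were the 3 lowest of all 12. Ckap2 (ENSMUSG00000037725, chr8:22168160-22185819, minus strand), which promotes the nucleation of microtubules, had 495, 567 and 579 in NAC MI, against 306, 284 and 321 in saline MI, a log2 difference of 0.85 (SE 0.17, limma adjusted p = 0.529). Here too the groups did not overlap, and the spread within each group was small. Its relative Ckap2l had 692, 619 and 588 in NAC MI, against 398, 410.0 and 422 in saline MI. Tpx2, which activates Aurora A and nucleates microtubules around chromosomes, had 1050.1, 1003 and 1411 in NAC MI, against 699, 839 and 713 in saline MI, and Dlgap5, a stabilizer of kinetochore fibres, had 434, 448 and 401 in NAC MI, against 238, 261 and 298 in saline MI. These 6 genes were the separated ones. The other spindle genes, Aspm (which focuses spindle poles) and Nusap1 (which bundles microtubules), had 1 saline MI library, number 3, within the NAC range.

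Of the 5 checkpoint genes, which hold back anaphase until chromosomes are attached, 5 were higher in NAC MI, with a median log2 difference of 0.51. Bub1 (ENSMUSG00000027379, chr2:127801122-127831865, minus strand), the kinase that recruits the checkpoint to kinetochores, had 539, 469 and 547 in NAC MI, against 193, 201 and 327 in saline MI, a log2 difference of 1.15 (SE 0.29, limma adjusted p = 0.529). Bub1 was separated, and so were Mad2l1 (Mad2, the inhibitor of Cdc20) with 684, 716 and 755 in NAC MI, against 499, 533 and 484 in saline MI, and Ttk (the kinase Mps1) with 214, 232 and 269 in NAC MI, against 154, 121 and 186 in saline MI. Bub1b (BubR1) and Bub3, partners of Mad2 in the checkpoint complex, overlapped between groups: Bub3 had 1215, 1021 and 1352 in NAC MI, against 1139, 1088 and 1020.3 in saline MI.

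In the outer kinetochore, which grips microtubules, 4 of 5 genes were higher in NAC MI (median log2 difference 0.35). Ndc80 had 289, 301 and 355 in NAC MI, against 176, 160.4 and 262 in saline MI, and its partner Nuf2 had 443, 423 and 484 in NAC MI, against 379, 349.9 and 341 in saline MI, both separated. The 2 short subunits of the same 4-part complex did not separate: Spc25 had 433, 293 and 527 in NAC MI, against 299, 355 and 301 in saline MI, and Spc24 299, 203 and 432 in NAC MI, against 379, 311 and 256 in saline MI, so that NAC MI 2 was the lowest of the 6 for both. Knl1, the scaffold on which Bub1 docks, had 309.7, 459 and 256 in NAC MI, against 102, 98.8 and 283 in saline MI. Saline MI 1 and 2 were far below every NAC library, and saline MI 3 was above NAC MI 3. All 4 genes of the centromere and corona were higher (median 0.78). Cenpe, a kinesin that carries chromosomes to the spindle equator, had 573, 647 and 357 in NAC MI, against 144, 175 and 426 in saline MI, and Cenpf, of the corona, had 602, 738 and 543 in NAC MI, against 178, 264 and 598 in saline MI. As for Knl1, saline MI 3 lay within the NAC MI range and saline MI 1 and 2 did not. Cenpi, of the inner kinetochore, was separated, with 253, 201 and 227 in NAC MI, against 139, 143 and 189 in saline MI. Cenpa, the histone variant that marks the centromere, was not, with 1036, 976 and 1095 in NAC MI, against 889, 1019.9 and 689 in saline MI.

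All 6 mitotic kinesins were higher in NAC MI, with a median log2 difference of 0.78, and 4 were separated: Kif11, Kif4, Kif2c and Kif22. Kif11 (Eg5), which pushes spindle poles apart, had 966, 896 and 781 in NAC MI, against 391, 391 and 653 in saline MI. Kif4, a kinesin on chromosome arms, had 557, 589 and 602 in NAC MI, against 275, 354 and 387 in saline MI, and Kif2c (MCAK), which takes microtubules apart, had 307, 455 and 351 in NAC MI, against 256, 244 and 251 in saline MI. Kif15 and Kif18a were not separated, since saline MI 3 lay above at least 1 NAC MI library for both.

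The 4 kinases and phosphatases had a median log2 difference of 0.50, and 3 of the 4 were separated. Aurka, the spindle pole kinase Aurora A, had 393, 398 and 632 in NAC MI, against 271, 302 and 279 in saline MI, where NAC MI 3 stood above the rest. Cdc25c, a phosphatase that activates Cdk1, had 154, 188 and 202 in NAC MI, against 101, 126 and 95.5 in saline MI, and Plk1, the polo-like kinase, had 387, 431 and 362 in NAC MI, against 314, 354 and 293 in saline MI, separated by a narrow gap. Cdc25b, the related phosphatase, overlapped fully, with 571, 557 and 863 in NAC MI, against 544, 675 and 726 in saline MI. Among 6 genes of anaphase and sister chromatid separation, 5 were higher in NAC MI (median 0.37). Sgo1 and Sgo2a, the shugoshins that guard cohesin at centromeres, were separated, with 210.2, 149 and 252 in NAC MI, against 130.1, 80.2 and 125 in saline MI for Sgo1 and 114, 104 and 133 in NAC MI, against 46.0, 40.1 and 90.6 in saline MI for Sgo2a. So was Espl1 (separase), with 503, 544 and 559 in NAC MI, against 378, 366 and 379 in saline MI. Cdc20, Ube2c and Pttg1 overlapped. Pttg1 was 1 of the 2 members with a lower mean in NAC MI, with 410.1, 381 and 363, against 356, 502 and 379 in saline MI, and Spc24 was the other. Of the condensin genes, 5 of 5 were higher (median 0.77) but only Ncapg was separated, with 332, 311 and 390.1 in NAC MI, against 176, 193 and 239.7 in saline MI. The core genes Smc2 and Smc4 each had saline MI 3 inside the NAC range. Top2a, which untangles DNA, was separated, with 3231, 3115 and 3049.6 in NAC MI, against 1739.7, 1518 and 2409 in saline MI. Mki67, which coats mitotic chromosomes, was not, with 3044, 2725 and 2295 in NAC MI, against 974, 1053 and 2316 in saline MI.

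**Figure D2:**
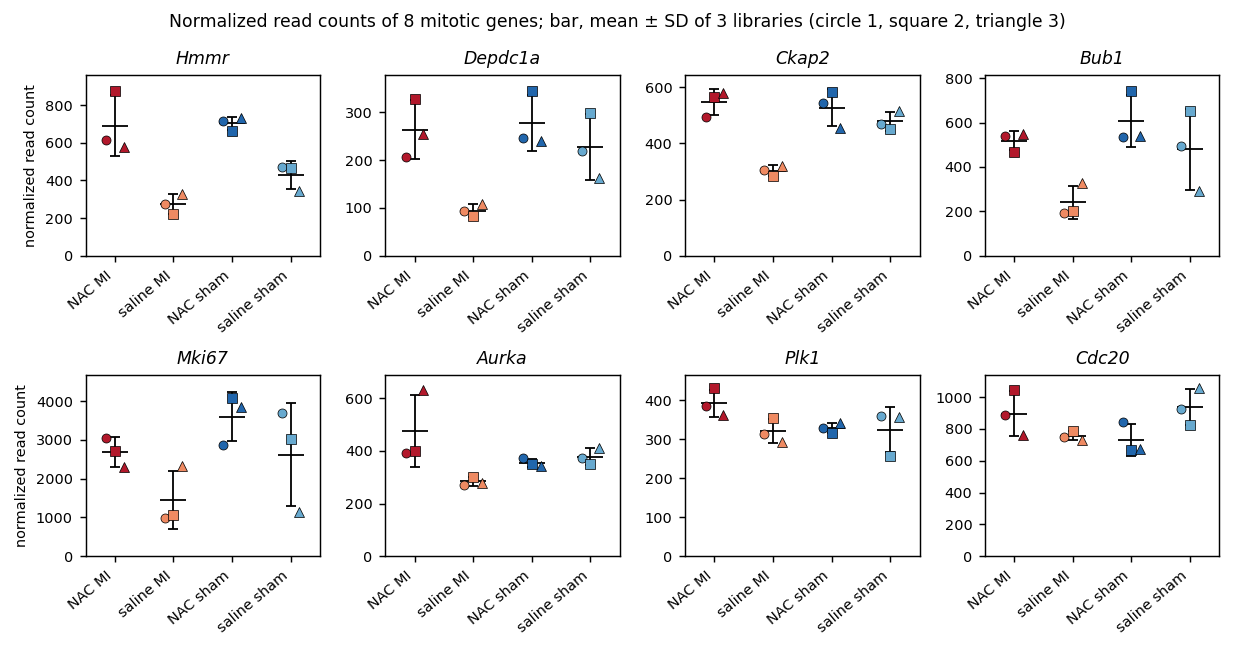
Normalized read counts (y axis, from 0) of 8 of the genes in each library, by group, with bars for the mean ± SD of 3 libraries. For Hmmr, Depdc1a, Ckap2 and Bub1 the saline MI libraries lie below those of NAC MI with no overlap, and for Mki67 saline MI 3 (triangle, 2316) reaches the NAC MI range.

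The difference was present within both MI prefixes. Within R230 (NAC MI 3 against saline MI 1 and 2), 43 of 45 genes were above the saline mean, where 52.5% of all genes were. These 43 were also above both saline libraries, as were 6544 of all 14996 genes, and the median log2 difference was 0.76. Within R235 (NAC MI 1 and 2 against saline MI 3), the NAC mean was higher in 42 of 45, where it was in 46.6% of all genes. Both NAC libraries were above saline MI 3 in 38 of 45, as in 4817 of all 14996 genes, and the median was 0.41. With the prefix as a term in the fit the median was 0.59, with 44 genes higher and 1 lower. Hmmr had a log2 difference of 1.19 and Depdc1a 1.39 in that fit (limma adjusted p = 0.392 for both). Without saline sham 3, NAC sham 2 and NAC MI 2, a set chosen after seeing the data, the median was 0.66 and limma called 0 of 45, with 0% of all genes. Markers of other cells also differed in level between these groups. Of the macrophage list, 20 of 20 genes had lower means in NAC MI (median log2 difference -1.33), and their summed level was 14357, 1421 and 12310.2 in NAC MI 1 to 3, against 15600.4, 11367 and 16604 in saline MI 1 to 3, with 1 marker, Cd163, at 0 in some libraries. Endothelial markers were lower in 14 of 16 (median -0.42), with sums of 74949, 43335 and 98847 in NAC MI, against 82679.5, 89435 and 77645 in saline MI. Red cell markers were lower in 10 of 12 (median -0.86), epicardial markers higher in 10 of 11 (median 0.72), with sums of 5817, 22806 and 6133 in NAC MI, against 6113, 5480.5 and 5307 in saline MI, so that NAC MI 2 stood apart here too. Cardiomyocyte markers were higher in 11 of 19 (median 0.03). Fibroblast markers were lower in 10 of 16 (median -0.12), mural cell markers in 8 of 10 (median -0.16), neutrophil markers in 9 of 13 (median -0.73) and lymphocyte markers in 5 of 5 (median -2.05). Limma called 0 in each of these lists. Genes at an unadjusted p under 0.05 numbered 3 for macrophages, 2 for endothelium, 5 for red cells, 3 for the epicardium, 2 for cardiomyocytes, 1 for mural cells, 3 for lymphocytes and 0 for fibroblasts and neutrophils. Of all genes, 3.86% were higher at that level, and the share that were lower is not given here. Within NAC MI, the member score was 9.08 in NAC MI 2, the library with the low macrophage score, and 9.03 and 9.10 in NAC MI 1 and 3. The part of cell makeup in the difference was not tested.

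**Figure D3:**
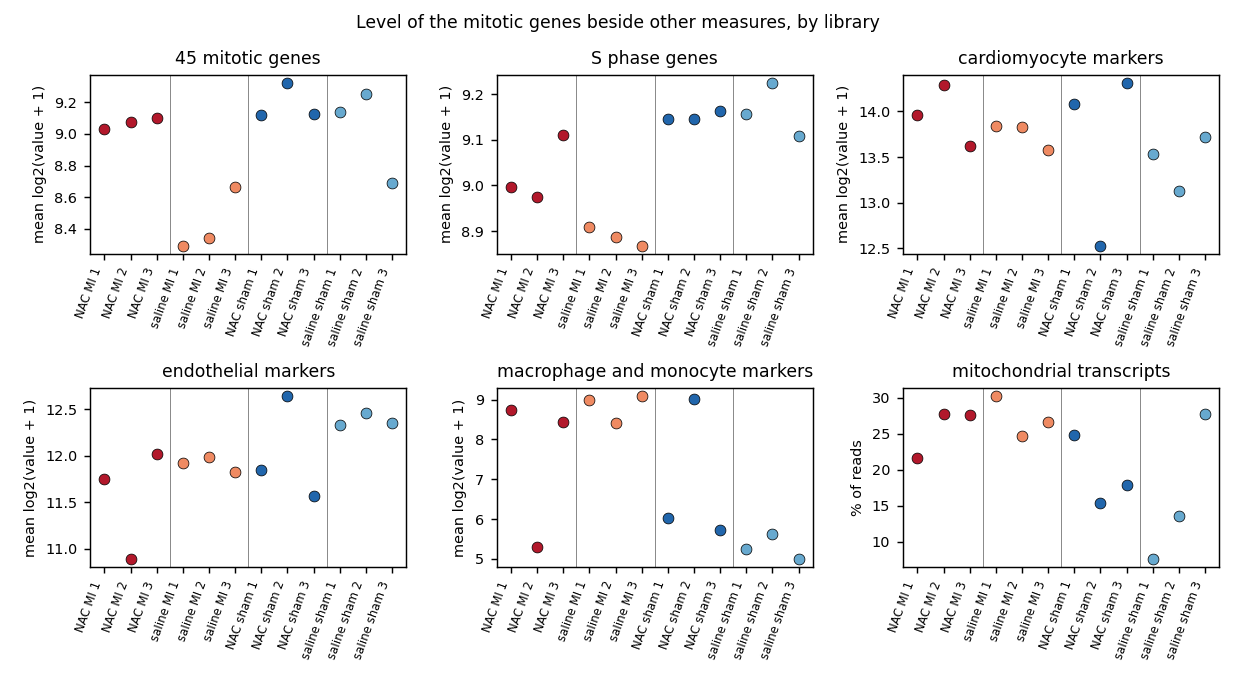
Mean log2 level of the 45 genes, of S phase genes and of 3 marker lists, and the share of mitochondrial reads, by library. The 45 genes were at 9.03 to 9.10 in NAC MI and at 8.30 to 8.67 in saline MI, while saline sham 3 (8.69) had more mitochondrial reads than the other saline sham libraries.

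The next comparison asked what an infarct changed in saline-treated pups, and it shares the saline MI libraries with the first, so the comparisons are not independent. All 45 genes had a lower mean in saline MI than in saline sham, with a median log2 difference of -0.58, against -0.01 over all genes. Limma called 0 of 45 (0.86% of all genes), with a smallest adjusted p of 0.0590, edgeR called 0 of 45 (0.607%), and at an unadjusted p under 0.05 26 were lower (4.53%). DESeq2 called 4 lower, Depdc1a, Ckap2, Ckap2l and Bub1, where it called 3.1% of all genes, and limma with quality weights called 31, where it called 19.4% of all genes. In 17 of 45 genes all saline MI libraries were below all saline sham libraries, against 8.15% of all genes.

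Depdc1a had 93.1, 82.5 and 108 in saline MI, against 219.6, 299 and 162 in saline sham, a log2 difference of -1.22 (SE 0.27, limma adjusted p = 0.0590). Ckap2 had 306, 284 and 321 in saline MI, against 469, 452 and 516 in saline sham, a log2 difference of -0.66 (SE 0.17, limma adjusted p = 0.106). Both were separated, and Ckap2 varied little within either group. Ckap2l had 398, 410.0 and 422 in saline MI, against 662, 715 and 488 in saline sham, a log2 difference of -0.58 (SE 0.17, limma adjusted p = 0.180). Cenpa had 889, 1019.9 and 689 in saline MI, against 1256, 1160.0 and 1422 in saline sham, a log2 difference of -0.58 (SE 0.17, limma adjusted p = 0.187). These 2 were separated as well, and saline sham 3 was the highest library for Cenpa and the lowest sham library for Ckap2l. By role, the centromere and corona genes had the largest median, -0.88, followed by kinesins (-0.75), condensin (-0.72), Mki67 and Top2a (-0.70), spindle genes (-0.61), outer kinetochore (-0.56) and checkpoint (-0.53), with anaphase genes (-0.36) and kinases and phosphatases (-0.23) nearest to 0. Differences between roles were not tested.

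Saline sham 3 stood apart from its group here. It lay below both other saline sham libraries in 31 of 45 genes and above both in 9, and it was between the lowest and highest saline MI library in 21 and below all of them in 1. The shares of all genes in these positions were not counted. Nor was its departure particular to the members: over all protein-coding genes as long as the longest 15 members, its median deviation from the 12-library mean was -0.45. Over those as long as the shortest 15 it was 0.16. Kif11 had 391, 391 and 653 in saline MI, against 1021, 1257 and 519 in saline sham, and Smc4 had 647, 784 and 1482 in saline MI, against 1986, 1729.5 and 973 in saline sham, so for both saline sham 3 stood with the MI libraries. Mki67 was alike, with 974, 1053 and 2316 in saline MI, against 3703, 3022 and 1139 in saline sham. For Pttg1 the same library was far above the rest: the gene had 356, 502 and 379 in saline MI, against 352, 393 and 674 in saline sham. Set against saline sham 1 and 2 alone, all saline MI libraries were below both in 38 of 45 genes, where 22.3% of all genes were. Without saline sham 3 the median was -0.75 and limma called 4 of 45 lower (Kif11, Depdc1a, Top2a and Espl1), against 0.7% of all genes. Without saline sham 3, NAC sham 2 and NAC MI 2 it called 23 of 45, against 12% of all genes. Macrophage markers were higher in saline MI in 20 of 20, of which limma called 3 (median 3.34, sums of 15600.4, 11367 and 16604 in saline MI, against 1439.6, 1692 and 1235 in saline sham). Neutrophil markers were higher in 13 of 13, 5 of them called (median 3.08), and endothelial markers lower in 15 of 16, 0 called (median -0.49). The mitochondrial share of reads was 30.2, 24.7 and 26.6% in saline MI, against 7.65, 13.6 and 27.7% in saline sham. The part of these measures in the lower mitotic levels was not tested.

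After NAC, the same question was asked of the NAC MI libraries already described. In NAC MI 16 genes had a higher mean than in NAC sham and 29 a lower one, with a median log2 difference of -0.17, against 0.00 over all genes. Limma called 0 of 45 (0.127% of all genes), with a smallest adjusted p of 0.540, edgeR 0 (0.187%) and DESeq2 0 (1.61%), and at an unadjusted p under 0.05, 0 were lower (4.88%). Groups were separated in 7 genes that were lower (9.96% of all genes) and in 3 that were higher (9.08%), so neither share was far from the background. The 3 higher ones were Aurka, Plk1 and Dlgap5. Aurka had 393, 398 and 632 in NAC MI, against 373, 350.3 and 344 in NAC sham, a log2 difference of 0.38 (SE 0.20, limma adjusted p = 0.540). Cdc20 had 887, 1042 and 759 in NAC MI, against 844, 667 and 673 in NAC sham, a log2 difference of 0.30 (SE 0.17, limma adjusted p = 0.578), with NAC sham 1 inside the NAC MI range. Ube2c had 1503, 1618 and 2147 in NAC MI, against 1407, 1598 and 1155 in NAC sham (0.34, SE 0.21, limma adjusted p = 0.589), and Dlgap5 434, 448 and 401 in NAC MI, against 347, 384 and 323 in NAC sham (0.28, SE 0.18, limma adjusted p = 0.591). None of the 4 passed. The 7 lower ones were Kif11, Kif4, Top2a, Cenpf, Aspm, Smc2 and Ncapd2; Cenpf, for instance, had 602, 738 and 543 in NAC MI, against 891, 1039.6 and 1081 in NAC sham. Kinases and phosphatases were higher in 4 of 4 (median 0.29) and outer kinetochore and condensin genes lower in 5 of 5 each (medians -0.21 and -0.28). Macrophage markers were higher in 16 of 20 (median 0.46), and their sums were 14357, 1421 and 12310.2 in NAC MI, against 2257, 25228 and 1833 in NAC sham. The member median was -0.11 without NAC sham 2 and -0.08 without saline sham 3, NAC sham 2 and NAC MI 2, with 0 genes called.

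In pups with a sham procedure, NAC was set against saline. In NAC sham 31 had a higher mean log2 level than in saline sham and 14 a lower one, with a median log2 difference of 0.13 (all genes, -0.02). Limma called 0 of 45 (0% of all genes, smallest adjusted p of a member 0.770), edgeR 0 (0%) and DESeq2 0 (0.341%), and at an unadjusted p under 0.05, 1 was higher (3.53%), Hmmr. Groups were separated in 2 genes that were higher, Hmmr and Aspm (5.35%). Hmmr had 716, 665 and 730.5 in NAC sham, against 474, 467 and 346 in saline sham, a log2 difference of 0.73 (SE 0.21, limma adjusted p = 0.770). Its 3 NAC libraries were close together and above all saline ones. Kif4 had 606, 918 and 608 in NAC sham, against 597, 639 and 334 in saline sham, a log2 difference of 0.47 (SE 0.26, limma adjusted p = 0.770). Its log2 difference was -0.025 without saline sham 3, NAC sham 2 and NAC MI 2. Lower in NAC sham were Cdc20, with 844, 667 and 673 against 926, 828 and 1054 in saline sham (-0.36, SE 0.17, limma adjusted p = 0.770), and Cenpa, with 1030.4, 1079.9 and 913 in NAC sham, against 1256, 1160.0 and 1422 in saline sham (-0.34, SE 0.17, limma adjusted p = 0.770). Cenpa was separated, and Cdc20 was not. The median was -0.01 without saline sham 3, and without saline sham 3, NAC sham 2 and NAC MI 2 it was -0.10, with 12 genes higher and 33 lower. The direction of the sham comparison thus rested on these libraries. Within prefix R207, NAC sham 2 was higher than the mean of saline sham 1 and 2 in 33 of 45 genes (median 0.12), where 50.4% of all genes were. Macrophage markers were higher in NAC sham in 20 of 20 (median 1.70, 0 called), with sums of 2257, 25228 and 1833 in NAC sham, against 1439.6, 1692 and 1235 in saline sham. Their part was not tested.

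**Figure D4:**
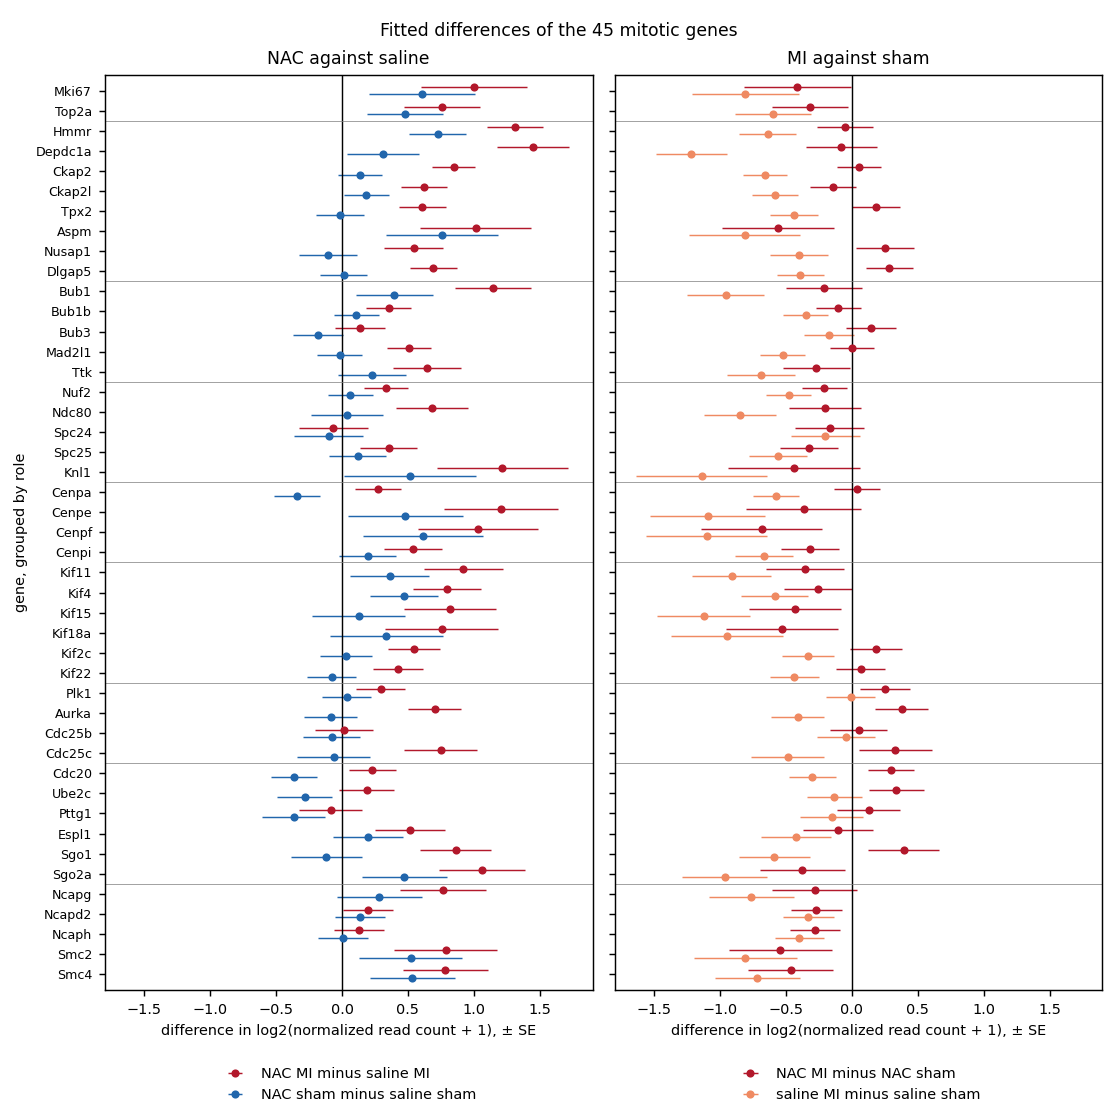
Fitted log2 difference ± SE of each gene, NAC against saline (left; MI in red, sham in blue) and MI against sham (right; NAC in red, saline in orange). For NAC against saline the red points lie right of 0 in 43 of 45 genes, and for MI against sham the orange points lie left of 0 in all 45.

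Whether NAC went with a different infarct effect is a test of the interaction, the MI difference after NAC minus that after saline. It was above 0 in all 45 genes, with a median log2 value of 0.47 against 0.00 over all genes. Limma called 0 of 45 (0% of all genes, adjusted p = 0.99988), edgeR 0 (0%) and DESeq2 0 (0.00669%), and at an unadjusted p under 0.05, 9 were higher (0.593%). The 45 genes vary together and share these libraries, so 45 of 45 is not 45 separate observations. The smallest p belonged to Ckap2 (log2 0.71, SE 0.24), Depdc1a (1.14, SE 0.38), Aurka (0.79, SE 0.29) and Dlgap5 (0.68, SE 0.25), each with a limma adjusted p = 0.99988. Depdc1a shows the shape: 206, 328 and 254 in NAC MI, 93.1, 82.5 and 108 in saline MI, 247, 344 and 239.6 in NAC sham, against 219.6, 299 and 162 in saline sham, with the saline MI group alone low. The median was 0.68 without saline sham 3. Over the 12 libraries, the lowest level of a gene was in saline MI 1 for 13 genes, in saline MI 2 for 15 and in saline MI 3 for 8. The highest was in NAC sham 2 for 15 genes.

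Averaged over treatments, the mean log2 level was lower in MI than in sham libraries in 42 of 45 genes (median log2 difference -0.34, all genes 0.00). Limma called 0 of 45 (2.74% of all genes), edgeR 0 (2.8%) and DESeq2 5 (8.15%), 27 were lower at an unadjusted p under 0.05 (9.83%), and in 0 genes were all 6 MI libraries below all 6 sham libraries (0.76%). Depdc1a had a log2 difference of -0.65 (SE 0.19, limma adjusted p = 0.0919), the inner kinetochore gene Cenpi -0.49 (SE 0.16, limma adjusted p = 0.109), the kinesin gene Kif15 -0.78 (SE 0.25, limma adjusted p = 0.110) and Kif11 -0.63 (SE 0.21, limma adjusted p = 0.125), and DESeq2 called these 4 and Ckap2l. Of the further members that are always named, Mki67 had -0.61 (SE 0.29), Smc4 -0.59 (SE 0.23), Bub1 -0.58 (SE 0.21), Ndc80 -0.53 (SE 0.19), Top2a -0.46 (SE 0.20), Cenpa -0.27 (SE 0.12), Tpx2 -0.13 (SE 0.13), Aurka -0.02 (SE 0.14), Pttg1 -0.01 (SE 0.17), Cdc20 -0.0016 (SE 0.12) and Plk1 0.12 (SE 0.13), with limma adjusted p from 0.143 to 0.995. With quality weights limma called 27 of 45 (27.9% of all genes), without saline sham 3 19 (10.4%), and without saline sham 3, NAC sham 2 and NAC MI 2 also 19 (14.6%). By its construction this difference is the mean of those after NAC and after saline.

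Averaged over surgeries, NAC libraries were higher in 38 of 45 genes (median log2 difference 0.36, all genes -0.02). Limma called 0 of 45 (0% of all genes, smallest adjusted p 0.126), edgeR 0 (0%) and DESeq2 4 (3.07%), and 22 were higher at an unadjusted p under 0.05 (7.62%). Hmmr stood apart from the other 44. Its 6 NAC libraries, from 579 to 875, were above all 6 saline libraries, from 224 to 474, as was so in 0.447% of all genes. It had a log2 difference of 1.02 (SE 0.15, limma adjusted p = 0.126), and DESeq2 called it, along with Depdc1a, Ckap2 and Bub1. Without saline sham 3, NAC sham 2 and NAC MI 2 limma called Hmmr alone of the 45 (adjusted p = 0.00939; 2.19% of all genes), with quality weights it called 19 (13.5%), and without saline sham 3 alone 0 (0%). Next came Depdc1a (0.88, SE 0.19, limma adjusted p = 0.172), Ckap2 (0.49, SE 0.12, limma adjusted p = 0.178) and Bub1 (0.77, SE 0.21, limma adjusted p = 0.189), none of which passed in limma. Of the further members that were always named, Mki67 had 0.80 (SE 0.29), Smc4 0.66 (SE 0.23), Kif11 0.64 (SE 0.21), Top2a 0.62 (SE 0.20), Ndc80 0.36 (SE 0.19), Aurka 0.31 (SE 0.14), Tpx2 0.30 (SE 0.13), Plk1 0.16 (SE 0.13), Cenpa -0.03 (SE 0.12), Cdc20 -0.07 (SE 0.12) and Pttg1 -0.23 (SE 0.17), with limma adjusted p from 0.222 to 0.915.

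The differences went with the length of the coding sequence, a pattern looked for after the values were seen. Over the 45 genes, the log2 difference of NAC against saline correlated with the log10 of the coding length at r = 0.63 after MI and 0.81 after sham, and that of MI against sham at r = -0.58 after saline and -0.63 after NAC. Over the 13446 protein-coding genes tested the same correlations were 0.21, 0.31, -0.15 and -0.25, in the same order. Genes of a library share its RNA and its size factor, so these carry no p. The 15 shortest (402 to 1809 bases), 15 middle (1926 to 3156) and 15 longest (3156 to 9531) had medians of 0.29, 0.65 and 0.92 for NAC against saline after MI, and of -0.40, -0.64 and -0.81 for MI against sham after saline. Over all protein-coding genes in these length ranges the medians were -0.06, 0.07 and 0.15 for the first comparison. For the second they were 0.04, -0.08 and -0.13. Separation by length differed between comparisons. For NAC against saline after MI, groups were separated and higher in 6, 12 and 6 genes of the shortest, middle and longest group, where 7.72%, 11.6% and 12.8% of all protein-coding genes in these length ranges were. For MI against sham after saline, they were separated and lower in 8, 9 and 0 genes (7.68%, 10.8% and 7.85% of all). For MI against sham after NAC, the 7 separated and lower genes were all in the longest group, with 0 in the shortest and 0 in the middle one (4.80%, 14.7% and 29.6% of all). In saline sham 3 the median deviation of a gene from its own 12-library mean was 0.18 in the shortest, -0.19 in the middle and -0.72 in the longest group, and 0.16, -0.19 and -0.45 among all protein-coding genes in the same length ranges. With the trend on length removed within each library, a correction also added after seeing the data, the median was 0.61 for NAC against saline after MI, -0.56 for MI against sham after saline, 0.07 for NAC against saline after sham, -0.05 for MI against sham after NAC and 0.52 for the interaction. The interaction had no such relation over the 45 genes (r = -0.01). Over all protein-coding genes r was -0.06 and the rank correlation -0.16. The median interaction there was 0.050 in the shortest of 12 length bins and -0.12 in the longest. What the length relation stems from was not tested.

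**Figure D5:**
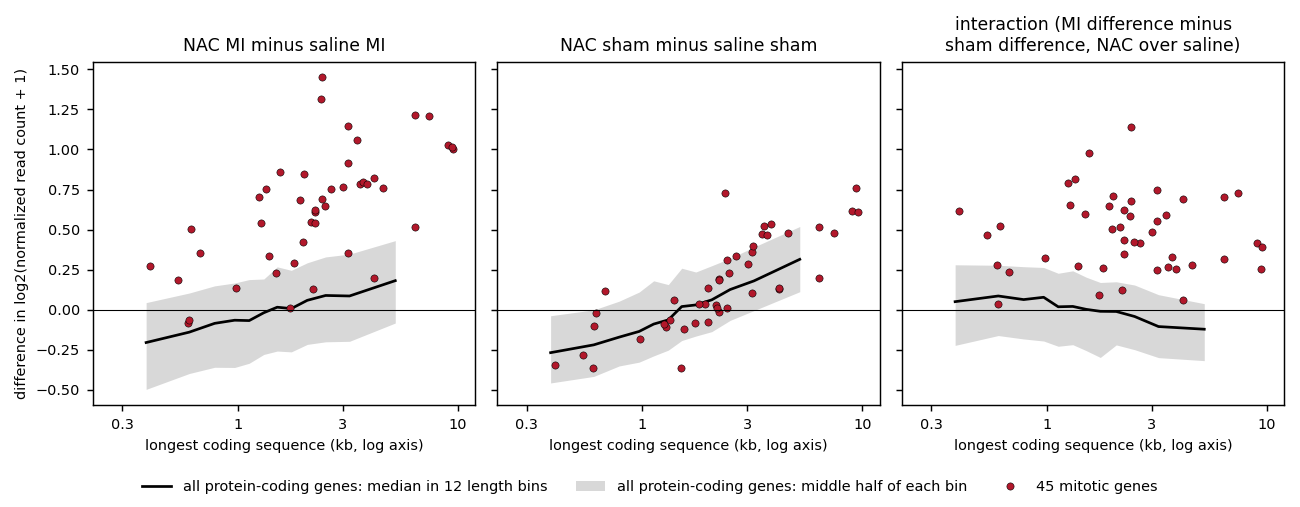
Log2 difference (y axis) against the longest coding sequence of the gene (x axis, kb, log scale) for NAC against saline after MI, NAC against saline after sham, and the interaction. Points are the 45 genes, and the line and band are the median and interquartile range of all protein-coding genes in 12 length bins. After sham the points rise with length, as the band does, with Hmmr and several long genes above it. After MI most points lie above the band.

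Other lists of the cell cycle place the 45 genes among their neighbours. For NAC against saline after MI, 60 of 74 other mitosis genes were higher (median 0.37), 12 of 13 genes of cytokinesis (median 0.50), 25 of 37 genes of S phase (median 0.10), and 12 of 22 regulators of mitotic transcription (median 0.00). Limma called 0 in each list, DESeq2 1 gene of cytokinesis, and at an unadjusted p under 0.05 there were 22, 8 and 3 higher genes in the first 3 lists (3.86% of all genes) and 1 lower regulator. Anln had 1402, 1469 and 1359 in NAC MI, against 695, 708 and 803 in saline MI, a log2 difference of 0.94 (SE 0.19, limma adjusted p = 0.529), and Prc1, which bundles the central spindle, had 819, 846 and 1091 in NAC MI, against 543, 556 and 562 in saline MI, a log2 difference of 0.72 (SE 0.20, limma adjusted p = 0.529). Ccnb1, cyclin B1, had 915, 946 and 1117 in NAC MI, against 556, 619.5 and 528 in saline MI, a log2 difference of 0.80 (SE 0.21, limma adjusted p = 0.529). Ska3, of a complex that tracks microtubules at kinetochores, had 176, 160.4 and 297 in NAC MI, against 69.5, 108 and 101 in saline MI, a log2 difference of 1.14 (SE 0.30, limma adjusted p = 0.529). The groups did not overlap for these 4 genes. In S phase the primase gene Prim1 had a log2 difference of 0.55 (SE 0.19, limma adjusted p = 0.529) and Orc1, of the origin recognition complex, a log2 difference of 0.76 (SE 0.29, limma adjusted p = 0.529). Among regulators E2f2 had a log2 difference of -0.70 (SE 0.32, limma adjusted p = 0.533) and E2f1 a log2 difference of -0.47 (SE 0.22, limma adjusted p = 0.542), both lower in NAC MI. For MI against sham after saline, 64 of 74 other mitosis genes were lower (median -0.42), 13 of 13 of cytokinesis (median -0.58), 33 of 37 of S phase (median -0.26) and 16 of 22 regulators (median -0.15). Limma called 0 in each, and 27, 7, 10 and 3 were lower at an unadjusted p under 0.05 in these lists (4.53% of all genes). Anln had a log2 difference of -0.70 (SE 0.19, limma adjusted p = 0.136) there, and Cep55, which completes the cut between daughter cells, a log2 difference of -0.70 (SE 0.22, limma adjusted p = 0.220). In the other lists Ccnb2 had a log2 difference of -0.82 (SE 0.22, limma adjusted p = 0.129), Melk a log2 difference of -0.79 (SE 0.23, limma adjusted p = 0.151), Rrm2, a subunit of ribonucleotide reductase, a log2 difference of -0.45 (SE 0.14, limma adjusted p = 0.197), Tk1, thymidine kinase, a log2 difference of -0.55 (SE 0.18, limma adjusted p = 0.225), and Foxm1, the activator of late cell cycle genes, a log2 difference of -0.56 (SE 0.19, limma adjusted p = 0.258). E2f7, a repressor of the E2F family, had a log2 difference of -1.13 (SE 0.43, limma adjusted p = 0.324). The interaction was above 0 in 64 of 74 other mitosis genes (median 0.38), 13 of 13 of cytokinesis (median 0.38), 28 of 37 of S phase (median 0.15) and 12 of 22 regulators (median 0.07), again with 0 called by limma and 7, 3, 1 and 0 higher at an unadjusted p under 0.05 (0.593% of all genes). The 2 genes of smallest p per list were Ccnb1 (0.91, SE 0.30), Ccnb2 (0.95, SE 0.32), Birc5 (0.83, SE 0.33), Cdca8 (0.55, SE 0.23), Tk1 (0.57, SE 0.25), Prim1 (0.53, SE 0.28), Rbbp4 (0.37, SE 0.27) and Rbl2 (-0.41, SE 0.31), as log2 interactions with a limma adjusted p = 0.99988 for each. Differences between the lists were not tested.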

How the data were processed

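RNA of cardiomyocyte-selected cells from pooled ventricles, in 12 libraries, 3 per group, was extracted with Trizol and sequenced as poly-A libraries, per the labels' protocols. Reads were handled with STAR 2.7.10a, DESeq2 1.44.0 and the build mm10, per the submitters' processing notes; the counter, its annotation and its strand setting are not given in the sources used here. The deposited signal values are gene read counts that the authors divided by 1 size factor per library: all values (100.0%) came out as whole reads within 0.01 once each column was divided by its smallest step. These steps gave the reads behind each library, 14353842 to 25118341, and intervals from them would cover counting error only. All value columns of the table belonged to the 12 libraries.

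Gene names came from GENCODE M21 (GRCm38), which held 52079 of the 52336 identifiers, and 276 of 277 genes of the lists were matched. Groups were taken from the treatment labels. The test was limma 3.58.1 in R 4.3.3, with an intensity-trended prior, on log2(value + 1), fitted as 4 group means over the 12 libraries (8 residual degrees of freedom) for the 14996 genes with a mean value of at least 10. P-values were adjusted by Benjamini-Hochberg over those genes and called at 0.05. Counts of genes higher or lower between groups refer to the sign of the fitted log2 difference. A log2 difference on this scale understates the change of genes with low values. edgeR 4.0.16 (quasi-likelihood) and DESeq2 1.42.0 on the recovered reads were alternatives. The other alternatives were pseudocounts of 0.5 and 5, no filter, a higher filter, TMM scaling, fits of the compared groups alone, library quality weights, the title prefix as a term, each library left out, a correction for coding length, and the removal of saline sham 3, NAC sham 2 and NAC MI 2. The last 2 and the 3 length groups were chosen after seeing the data. The test was tried on simulated data before use. Named genes were, per comparison, the 4 members with the smallest p, 12 members always named in the averaged comparisons, and the 2 of smallest p per pathway list, printed here for NAC against saline after MI, MI against sham after saline and the interaction; levels of further members are given as descriptions. The 45 members and the lists were chosen with earlier results of these data known. One gene among the 15 whose levels were most like those of the members is not reported here.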

Additional observations from a re-analysis of the deposited data

Results flagged for a closer look

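Aurka and Dlgap5 differed from sham in opposite directions under the different injections, in every MI library. For Aurka, NAC MI libraries had 393, 398 and 632, all above the 373, 350.3 and 344 of NAC sham, while saline MI libraries had 271, 302 and 279, all below the 374, 349 and 412 of saline sham. Its interaction was 0.79 on the log2 scale. For Dlgap5, which binds kinetochore fibres, NAC MI had 434, 448 and 401, above NAC sham with 347, 384 and 323, and saline MI had 238, 261 and 298, the highest of them just below the lowest of saline sham with 363, 386 and 299.9. Its interaction was 0.68. The difference itself did not pass in limma (adjusted p = 0.99988 for both), and they were picked from 45 genes for this arrangement. Of all genes tested, 9.08% were separated and higher in MI after NAC, and 8.15% were separated and lower in MI after saline. The share of all genes with both was not counted, so the arrangement is not shown to be more frequent among the 45.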

How the results depend on the processing

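No paired analysis was possible because the labels give no replicate numbers shared between groups. The title prefix, which NAC MI and saline MI libraries share, was fitted as a term instead (median 0.59 for NAC against saline after MI, 0 called). The direction of the member median held in every alternative run for MI against sham after saline (-0.75 to -0.46 over single libraries left out), for both averaged comparisons, for NAC against saline after MI (0.55 to 0.72) and for the interaction (0.36 to 0.71). It did not for NAC against saline after sham or for MI against sham after NAC, and the cause was not tested. The number of the 45 genes called was 0 in the main limma fit of every comparison. Library quality weights moved it most. They gave 31 for MI against sham after saline and 25 for NAC against saline after MI. For MI averaged over treatments they gave 27, and for NAC averaged over surgeries 19. DESeq2 gave 4, 3, 5 and 4 in the same order, and edgeR 0 in each. For MI against sham after saline, the fit of the compared groups alone and the correction for coding length each gave 1 (3.38% and 1.12% of all genes), the fit without saline sham 3, NAC sham 2 and NAC MI 2 gave 23 (12%), and the same with the correction 16 (8.82%). For MI averaged over treatments the last 3 gave 1, 19 and 8 (3.57%, 14.6% and 10.2%), and for NAC averaged over surgeries the removal of those libraries gave 1 with or without the correction (3.05% and 2.19%). With each library left out in turn, the count ran from 0 to 4 for MI against sham after saline and from 0 to 19 for MI averaged over treatments. Both were highest without saline sham 3, where 0.7% and 10.4% of all genes were called. For NAC averaged over surgeries the count ran from 0 to 1, and it was 1 without NAC MI 3 or NAC sham 2. For MI against sham after saline it was 1 without NAC MI 2 or NAC sham 2. The shares of all genes called in the fits that gave 1 are not given here, so that count cannot be set against them. The interaction median ran from 0.36 to 0.68 over the same fits, and was 0.71 without the 3 libraries and 0.68 with the correction too. Without the 3 libraries the median of NAC against saline after sham was -0.10, and likewise -0.10 with the correction, under which that of MI against sham after NAC was 0.033. Kif4 was at -0.025 and -0.055 in these fits for NAC against saline after sham. The near-zero Cenpa value of the averaged NAC comparison ran from -0.11 to 0.030 over single libraries left out, and was 0.18 with the length correction, 0.000544 without the 3 libraries and 0.065 with both. Pttg1 there was 0.000975 with both. Over all genes, limma's calls ran from 0 to 685 for NAC against saline after MI, from 15 to 2915 for MI against sham after saline and from 0 to 2021 for NAC averaged over surgeries. Counting error weighs most on members with few reads, such as Kif18a with 34.0 in its lowest library.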
